A study of Mus musculus with 9 samples.

Results

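The genes of glycolysis, of the pentose phosphate pathway and of lactate handling were followed in 9 mouse lymphomas. The list held 37 genes chosen for their function, of which 33 had at least 1 probe set assigned to a single gene by the platform annotation and 30 were bright enough to be compared. These 30 stood among 10172 genes compared in all. For each gene the brightest probe set on average was used, and the remaining ones serve as a check. A level here is the log2 of the intensity that the GCRMA method gives for a probe set, and levels of different genes cannot be ranked against each other, because probe sets differ in how strongly they bind.

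The lymphomas came from mice of 2 genotypes on a 94% C57BL/6 background. There were 4 tumours from Eμ-Myc mice and 5 from mice with Eμ-Myc and also Eµ-TTP-1, called double-transgenic here. The Eμ enhancer, which belongs to the immunoglobulin heavy chain locus, directs such transgenes to B lineage cells. TTP (tristetraprolin) is an RNA-binding protein that speeds the decay of mRNAs with AU-rich elements, and all 9 tumours carried the Myc transgene. Zfp36, the gene of TTP, had a difference of -0.02 (SE 0.25) on its probe set, whose place relative to the transgene is not known, so it does not check the genotypes. Each tumour was hybridised to 1 Affymetrix mouse array and the labels call the tumours biological replicates, without saying whether each came from a separate mouse, so p-values measure the spread between these samples. Ages are not given in the sources used here, and normal B cells are not part of the comparison. Differences are given on the log2 scale as double-transgenic minus Eμ-Myc.

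Glycolysis takes glucose through transporters of the Slc2a family, traps it with hexokinase, commits it at phosphofructokinase and ends at pyruvate kinase. Pyruvate then either becomes lactate through lactate dehydrogenase and leaves the cell through monocarboxylate transporters, or enters mitochondria for oxidation by pyruvate dehydrogenase. The pentose phosphate pathway branches off after hexokinase and supplies NADPH and ribose for nucleotides. Many steps have several isozymes encoded by different genes, and MYC and the hypoxia-inducible factors are known activators of many of these genes.

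The arrays had median intensities from 12.2 to 13.4. The tumours expressed B lineage genes: Cd79a lay between 13.24 and 14.06 and Cd79b between 14.37 and 15.30 in all 9. Marker genes of other cells varied between tumours. Of the T and NK cell genes, Cd3e stayed between 2.75 and 3.43, under the level of 4 used here as the limit of background. Cd3d ran from 2.86 to 8.02 and Thy1 from 4.71 to 9.73. The mean of the 5 compared genes ran from 5.90 to 6.92 without and from 5.73 to 7.17 with the TTP transgene. Cd2, among these 5, ran from 7.88 to 12.22 and was lowest in Eμ-Myc replicate 4, where Cd3d and Cd3g were highest, at 8.02 and 6.38. That mean is therefore no measure of T and NK cell content. The mean level of 9 granulocyte genes ran from 4.81 to 9.59 without and from 3.85 to 9.74 with the TTP transgene. All 9 had negative differences, with a median of -1.97 and 0 with an unadjusted limma p under 0.05. Their list mean averaged 7.60 in Eμ-Myc and 5.58 in double-transgenic tumours. The mean of 10 stromal and endothelial genes ran from 8.92 to 10.57 without the TTP transgene and from 8.06 to 10.27 with it. The part of such cells in differences of the members was not tested. In RNA of tumours that hold several kinds of cell, a smaller share of one kind of cell and less RNA in each such cell cannot be told apart.

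No gene of these pathways passed the test between genotypes. With limma's moderated test over all 10172 genes and Benjamini-Hochberg adjustment at 0.05, 0 of the 30 members and 0% of all genes were called, and the adjusted p of the members ran from 0.769 to 0.995. At an unadjusted p under 0.05 there were 2 members, Pkm and Pgm2l1, both higher in double-transgenic tumours, against 5.67% of all genes (3.87% higher and 1.8% lower). The same 2 members were those whose values did not overlap between the groups. Over all genes 1.64% did not overlap, 1.18% with the double-transgenic group higher and 0.462% with it lower. Differences above 0 were seen in 14 of 30 members against 58.9% of all genes. The median difference was -0.01 for the members and 0.05 for all genes, and the median absolute difference was 0.26 and 0.18.

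**Figure D1:**
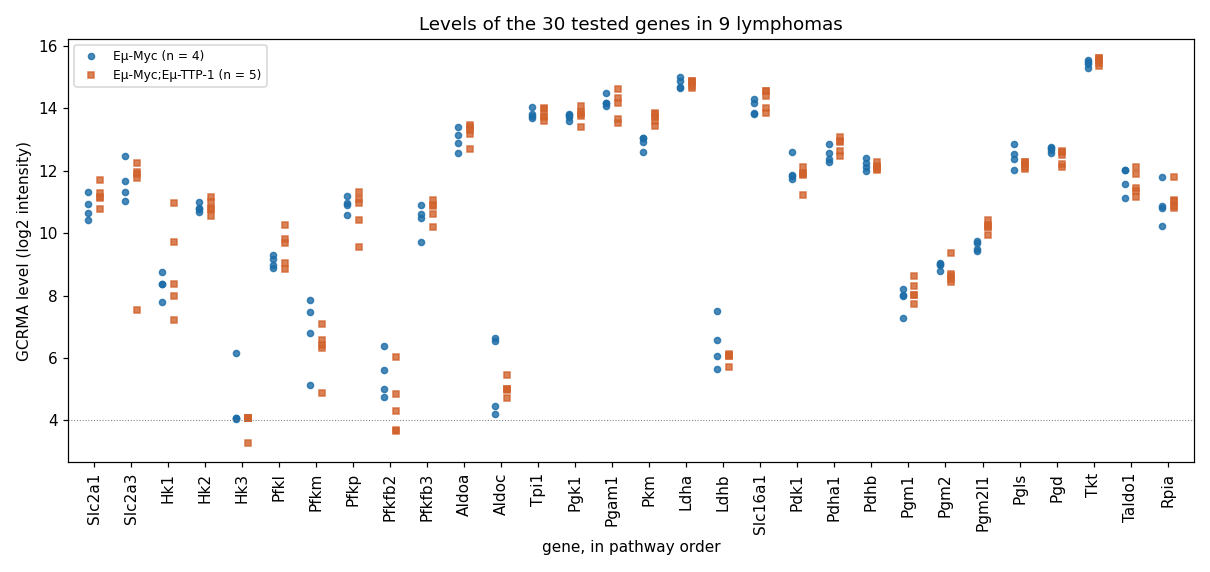
Level (log2 GCRMA intensity, vertical axis) of the 30 compared genes, in pathway order along the horizontal axis, in 4 Eμ-Myc (circles) and 5 double-transgenic (squares) lymphomas; the dotted line marks the background limit of 4. Groups are apart for Pkm and Pgm2l1, and single tumours stand far off for Slc2a3, Hk1 and Ldhb; heights of different genes are not comparable.

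Pkm encodes the muscle-type pyruvate kinase, which makes pyruvate and ATP in the last step of glycolysis. Its level was 13.04, 13.03, 12.60 and 12.90 in Eμ-Myc replicates 1 to 4 and 13.73, 13.42, 13.58, 13.86 and 13.83 in double-transgenic replicates 1 to 5. Every double-transgenic tumour was above every Eμ-Myc tumour. The means were 12.89 ± 0.21 (SD, n = 4) and 13.68 ± 0.18 (SD, n = 5), a difference of 0.79 (SE 0.14, 95% interval 0.46 to 1.12), or 1.73-fold. The limma adjusted p was 0.769, and the exact permutation p for this single gene was 0.00794 (two-sided), the smallest that the 126 splits of 9 tumours can give. Pkm was already known to lie at the top of the comparison, so this p describes it and is no independent support.

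The Pkm gene gives 2 mRNAs, M1 and M2, by choice between a pair of exclusive exons, and the M2 form is typical of proliferating cells. The platform annotation assigns 1 probe set to Pkm and does not say which exons it covers, so M1 and M2 were not separated here. Genes for proteins known to act on that choice had similar levels in both groups. Ptbp1 had a difference of 0.09 (SE 0.12), Hnrnpa1 -0.04 (SE 0.12), Hnrnpa2b1 0.01 (SE 0.10) and Srsf3 0.03 (SE 0.10). Of 6 such genes compared, 5 had positive and 1 a negative difference, none with an unadjusted p under 0.05, and the extremes were Ptbp2 at 0.28 (SE 0.26) and Hnrnpa1.

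Proliferation genes were also higher on average in the double-transgenic group. All 9 compared genes of a proliferation list, among them Mki67 and Top2a, had positive differences with a median of 0.36, and their mean level ran from 12.01 to 13.01 without and from 12.90 to 13.09 with the TTP transgene. Eμ-Myc replicates 1 to 4 read 12.01, 13.01, 12.46 and 12.96 in this mean, so replicates 1 and 3 were the lowest of the 9 tumours. The part of proliferation in the Pkm difference was not tested.

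Genes beside Pkm on chromosome 9 had differences in both directions. Among the 10 compared genes on each side, in gene order of assembly GRCm38.p6, 10 had positive and 10 negative differences, and the median was -0.01. The nearest ones, Parp6 and Senp8, had -0.08 (SE 0.23) and 0.48 (SE 0.60). Stoml1 had the most negative difference, -1.0 (SE 0.35), and Bbs4 the most positive, 0.54 (SE 0.23). These were the 2 of 20 with an unadjusted limma p under 0.05, against 5.67% of all genes. Over the whole chromosome, 572 compared genes had a median difference of 0.07, and the chromosome 9 median of single tumours deviated by -0.05 to 0.01. With every chromosome centred in every array the Pkm difference was 0.77.

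**Figure D2:**
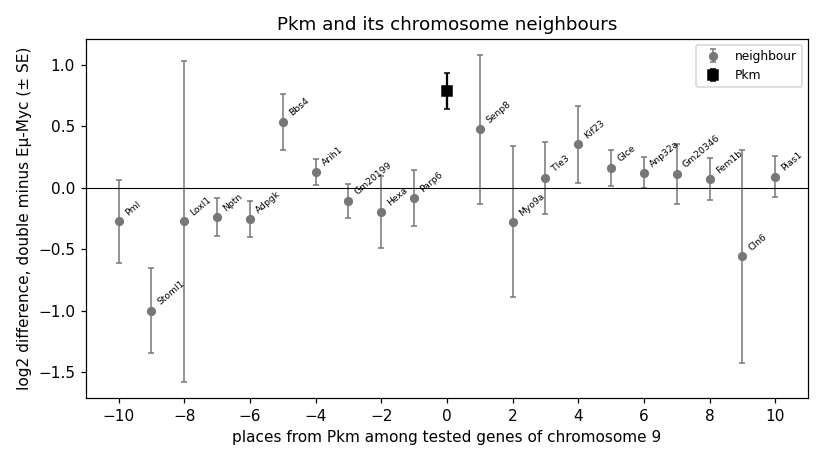
Log2 difference between genotypes (double-transgenic minus Eμ-Myc, vertical axis, bars are ± SE) of Pkm (square) and the 10 compared genes on each side (circles), by place in gene order on chromosome 9. Pkm lies at 0.79, above all 20 neighbours, whose median is -0.01.

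Pkm's partners in the pathway did not follow it from tumour to tumour in a way that passed a test. After the group means were removed, the correlation with Pkm over 9 tumours was computed for 29 members, with exact permutation of tumours within their group. It ran from -0.62 to 0.70, and 0 of 29 relations passed after Benjamini-Hochberg adjustment, while 2 had an unadjusted exact permutation p under 0.05. The share of all compared genes with such a p is not given here, so the count of 2 is not a result about these members. Pgam1, phosphoglycerate mutase, had r = 0.70 (exact permutation p = 0.0347, adjusted 0.609) and rho = 0.72 (exact permutation p = 0.0458, adjusted 0.774). Without the 2 tumours farthest in Pkm, Eμ-Myc replicate 3 and double-transgenic replicate 2, its r was 0.77. Some correlations turned on those 2 tumours and others did not. Without them the range was from -0.58 for Slc16a1 to 0.89 for Pfkl. Slc2a1 went from -0.50 to 0.86, Pfkl from -0.14 to 0.89, and Pgm2l1, the lowest with all 9, from -0.62 to -0.03. Hk2, with 0.51 and 0.50, and Tpi1, with 0.47 and 0.46, hardly moved. Pgd, of the pentose phosphate pathway, had r = 0.68 (exact permutation p = 0.042, adjusted 0.609), rho = 0.65 (exact permutation p = 0.0799, adjusted 0.774) and 0.80 without those 2 tumours.

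Ldha, which acts directly on the product of pyruvate kinase, had r = 0.64 (exact permutation p = 0.1, adjusted 0.624) and rho = 0.53 (exact permutation p = 0.181, adjusted 0.774), and r = 0.30 without the same 2 tumours. Leaving out Eμ-Myc replicate 1 alone gave Ldha r = 0.989 over 8 tumours (adjusted exact permutation p = 0.0403), the 1 relation that passed in any such refit. Eμ-Myc replicate 1 had the highest Pkm level and the lowest Ldha level of its group, 13.04 and 14.64.

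Pgm2l1 encodes an enzyme related to phosphoglucomutases that makes glucose 1,6-bisphosphate, the cofactor of phosphoglucomutase. It read 9.42, 9.67, 9.74 and 9.48 in Eμ-Myc replicates 1 to 4 and 9.93, 10.41, 10.25, 10.18 and 10.19 in double-transgenic replicates 1 to 5. The groups did not overlap. The means of 9.58 ± 0.15 (SD, n = 4) and 10.19 ± 0.17 (SD, n = 5) differed by 0.62 (SE 0.13, 95% interval 0.32 to 0.91), or 1.53-fold, with a limma adjusted p of 0.845 and an exact permutation p of 0.00794. Its other probe sets had differences of 0.78 (SE 0.18) and 0.76 (SE 0.23), and the groups did not overlap on these either. Probe sets of 1 gene read the same RNA, so they check the probes and add no samples.

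**Figure D3:**
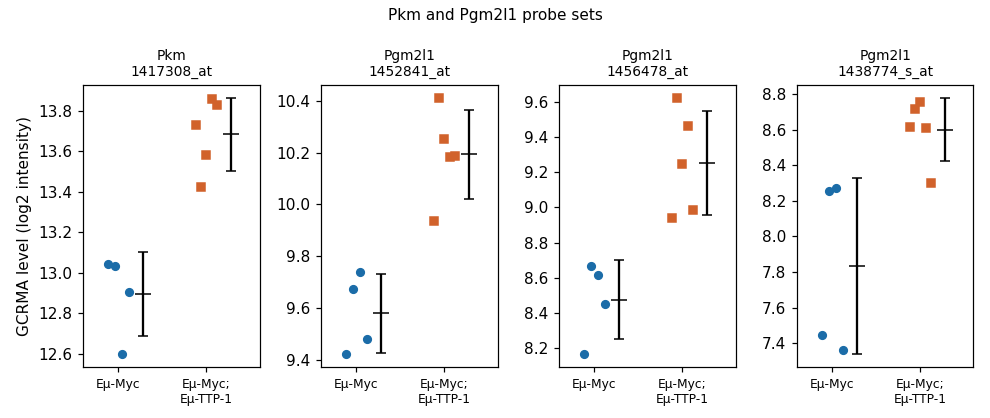
Level (log2 GCRMA intensity, a separate vertical axis for each panel) of the Pkm probe set and the 3 Pgm2l1 probe sets in 4 Eμ-Myc (circles) and 5 double-transgenic (squares) lymphomas; dashes and bars are the mean ± SD. In all 4 panels the lowest double-transgenic tumour lies above the highest Eμ-Myc tumour.

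The other genes listed as phosphoglucomutases, Pgm1 and Pgm2, did not share the Pgm2l1 pattern. Pgm1 had 0.27 (SE 0.24) and Pgm2 -0.22 (SE 0.19), the latter -0.38 without double-transgenic replicate 2. These symbols follow the current reference, in which the mouse names Pgm1 and Pgm2 have been exchanged against older usage. The log2 ratio of Pgm2l1 to Pgm2 within a tumour ran from 0.38 to 0.94 without and from 1.06 to 1.74 with the TTP transgene, a difference of 0.84 (exact permutation p = 0.0159, adjusted over 9 isozyme pairs 0.143). A lone pair cannot go below an adjusted p of 0.0714 in this design.

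Sequences upstream of Pkm and Pgm2l1 are shown because these 2 members had groups that did not overlap, beside Ldha, whose difference was nearest to 0. Each is the 250 bases before a RefSeq start site in build GRCm38.p6, written 5′ to 3′ on the coding strand, and Pkm and Ldha each have 2 start sites in that table. Capitals mark the letters ACGTG on either strand, the core of the hypoxia response element, which lie within CACGTG, the E-box that MYC and MAX bind.
Pkm, start site 1, chr9:59656326-59656575, + strand: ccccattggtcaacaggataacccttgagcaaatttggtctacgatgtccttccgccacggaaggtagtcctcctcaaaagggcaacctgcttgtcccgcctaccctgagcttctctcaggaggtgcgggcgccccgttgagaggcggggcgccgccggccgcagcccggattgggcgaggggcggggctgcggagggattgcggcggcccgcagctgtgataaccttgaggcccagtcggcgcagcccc
Pkm, start site 2, chr9:59656977-59657226, + strand: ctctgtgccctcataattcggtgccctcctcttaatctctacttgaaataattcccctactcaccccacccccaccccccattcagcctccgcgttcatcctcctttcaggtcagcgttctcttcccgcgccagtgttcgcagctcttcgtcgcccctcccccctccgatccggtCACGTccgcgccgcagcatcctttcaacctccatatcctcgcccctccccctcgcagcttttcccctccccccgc
Pgm2l1, chr7:100227357-100227606, + strand: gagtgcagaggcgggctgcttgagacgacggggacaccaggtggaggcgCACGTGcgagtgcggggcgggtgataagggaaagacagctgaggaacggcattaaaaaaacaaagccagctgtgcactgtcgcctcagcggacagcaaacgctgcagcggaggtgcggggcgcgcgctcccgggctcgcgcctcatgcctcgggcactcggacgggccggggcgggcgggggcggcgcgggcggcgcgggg
Ldha, start site 1, chr7:46845554-46845803, + strand: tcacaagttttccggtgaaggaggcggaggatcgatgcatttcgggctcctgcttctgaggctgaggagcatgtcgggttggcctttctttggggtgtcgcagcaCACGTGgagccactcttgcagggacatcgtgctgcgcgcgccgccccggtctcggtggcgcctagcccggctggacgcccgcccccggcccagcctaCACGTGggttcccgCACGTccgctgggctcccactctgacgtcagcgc
Ldha, start site 2, chr7:46846832-46847081, + strand: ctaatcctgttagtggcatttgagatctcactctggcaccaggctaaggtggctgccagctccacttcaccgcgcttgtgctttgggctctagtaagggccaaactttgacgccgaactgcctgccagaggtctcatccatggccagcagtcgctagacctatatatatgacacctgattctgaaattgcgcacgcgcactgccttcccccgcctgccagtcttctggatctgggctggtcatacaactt
CACGTG occurred 2 times before start site 1 of Ldha and 0 times before its start site 2, 1 time before Pgm2l1 and 0 times before either Pkm start site. The start site 2 of Pkm had ACGTG at 1 place, and start site 1 of Ldha had 3 places in capitals.

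Among the 36 members found in the promoter table, 7 had CACGTG before at least 1 start site, or 19.4%, against 10.3% of 8331 compared genes with a promoter there and 6.86% of all 27025 genes. These were Ldha, Pdk2, Pfkfb2, Pfkfb3, Pfkm, Pgm2l1 and Slc16a1. ACGTG was present in 18 members, or 50%, against 25.9% of compared and 18.5% of all genes. Genes with more start sites have more chances of a match, and the 36 members had 53 start sites. A match of letters describes the sequence and does not show binding.

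Several core enzymes had nearly equal levels in both genotypes with narrow intervals. Ldha, the lactate dehydrogenase subunit typical of tumours, was 14.79 ± 0.16 (SD, n = 4) in Eμ-Myc and 14.79 ± 0.11 (SD, n = 5) in double-transgenic tumours, and its 95% interval allowed 0.828- to 1.20-fold. Its whole range over the 9 tumours was 0.35. Tpi1, triose phosphate isomerase, had -0.02 (95% interval 0.80- to 1.22-fold), Pgk1, phosphoglycerate kinase, 0.05 (0.816- to 1.31-fold) and Hk2, the hexokinase that MYC is known to induce, 0.03 (0.804- to 1.29-fold). Tkt, transketolase of the pentose phosphate pathway, had 0.07 (0.884- to 1.25-fold) and Pdhb, a pyruvate dehydrogenase subunit, -0.07 (0.787- to 1.15-fold). The 10 members with a pooled SD under 0.25 include all of these, and the median pooled SD was 0.36 for the members and 0.35 for all compared genes.

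At transport, phosphorylation and commitment of glucose, 1 double-transgenic tumour had another balance of isozyme genes than the rest. In replicate 2 the transporter gene Slc2a3 (GLUT3) was at 7.55, against 11.01 to 12.48 in the other 8 tumours, while Slc2a1 (GLUT1) had its highest level there, 11.69 against 10.42 to 11.32. The next brightest Slc2a3 probe set was also lowest there, at 4.90 against 8.71 to 10.34. Its remaining probe sets were under background in all 9 tumours. Hk1, the hexokinase of most tissues, read 10.96 in double-transgenic replicate 2, 9.71 in replicate 4 of that group and 7.21 to 8.76 elsewhere, whereas Hk2 varied only between 10.53 and 11.17. Pfkl, the liver-type phosphofructokinase, was highest in the same tumour at 10.25, next in replicates 4 and 5 at 9.80 and 9.69, and 8.85 to 9.29 in the others. Pfkp, the platelet type, was lowest there at 9.55, against 10.41 to 11.31.

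Within-tumour ratios put this in numbers, read only between tumours because the zero of a ratio of 2 probe sets has no meaning. The log2 ratio of Slc2a1 to Slc2a3 was 4.14 in double-transgenic replicate 2 and -1.21 to -0.40 in the other 8. Hk1 to Hk2 stood at 0.19 there, -1.06 in replicate 4 and -3.96 to -2.06 elsewhere. Pfkl to Pfkp stood at 0.70 there, -0.60 in replicate 4 and -2.31 to -1.31 elsewhere. None of these separated the genotypes: the differences of the ratios were 0.91 (exact permutation p = 0.81), 0.50 (p = 0.603, exact) and 0.70 (p = 0.341, exact), and 0 of 9 pairs passed after adjustment.

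**Figure D4:**
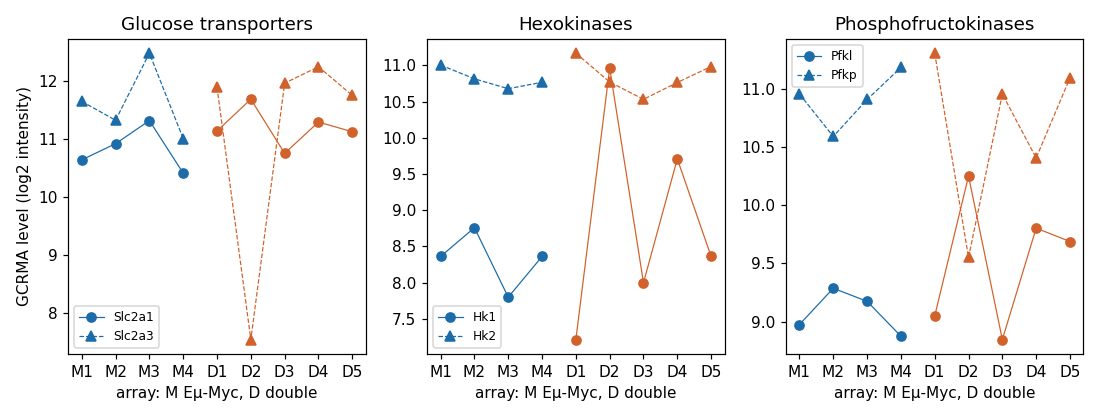
Level (log2 GCRMA intensity, vertical axis) of 2 glucose transporter, 2 hexokinase and 2 phosphofructokinase genes in each tumour, M1 to M4 being the Eμ-Myc and D1 to D5 the double-transgenic replicates. In D2, Slc2a3 drops to 7.55 and Pfkp to 9.55 while Hk1 reaches 10.96 and Pfkl 10.25; lines only join the points of 1 gene.

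Genes known to respond to hypoxia went in both directions in these tumours. Egln3, a prolyl hydroxylase that hypoxia-inducible factors themselves induce, read 9.0 in double-transgenic replicate 2 and 8.62 in replicate 4, against 2.46 to 2.80, under background, in the other 7. Car9, a carbonic anhydrase, read 6.35 in replicate 2 and was under background in the other 8, replicate 4 included. Vegfa was highest in replicate 2 at 9.24, against 5.79 to 7.90. Ndrg1 read only 7.49 and 7.29 in replicates 2 and 4, in a range of 7.27 to 9.22, and Ddit4 was lowest in replicate 2 at 9.64. The mean of the 13 compared genes of the hypoxia list was highest in replicate 2, at 9.33, and 8.87 in replicate 4, within the 8.68 to 9.28 of the other 7. Slc2a3 and Pdk1, also known as hypoxia-induced, were lowest in replicate 2, Pdk1 on its brightest probe set and the next. On the dimmer Pdk1 probe sets the lowest tumours were Eμ-Myc replicate 3, at 9.34, and Eμ-Myc replicate 2, at 6.73. The genes named here were picked after their values were seen, and the part of oxygen supply was not tested.

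The same tumour differed from the rest in other ways. Its B cell gene Cd22 was at 6.99 against 11.91 to 12.92 in the other 8, its granulocyte list mean of 9.74 was the highest of the 9, with Mpo at 10.78 against 2.26 to 7.62, and its stromal mean of 10.27 was second to Eμ-Myc replicate 4 at 10.57. The mean of the 7 compared B cell genes, Cd22 included, was lowest there, 11.58 against 11.98 to 12.83. Not all of these genes were low in that tumour. Cd79b had its highest level there, 15.30, and Cd79a read 14.04 in a range of 13.24 to 14.06. Pax5 read 8.49 in a range of 8.32 to 9.65 and Blnk 12.95 in a range of 12.70 to 13.60. The part of other cells in these isozyme levels was not tested. That tumour held the highest or lowest level of the 9 for 12 of 30 members, or 40%, and for 34.9% of all genes. Eμ-Myc replicate 1 came close, with 9 of 30 members, or 30%, and 32.6% of all genes, and Eμ-Myc replicate 3 had 28.1% of all genes.

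With all 9 tumours the transporters had differences of 0.38 (SE 0.23) for Slc2a1 and -0.54 (SE 0.94) for Slc2a3. All 3 Slc2a1 probe sets had positive differences, 0.38, 0.49 and 0.58. Without double-transgenic replicate 2 the Slc2a3 difference was 0.35, without replicate 4 of that group -0.83 and without Eμ-Myc replicate 3 -0.25. Hk1 had 0.53 (SE 0.70), with 4.74e-04, 0.31 and 0.94 when double-transgenic replicate 2, 4 or 1 was left out. The Slc2a1 difference was 0.25 without double-transgenic replicate 2 and 0.24 without Eμ-Myc replicate 4. Pfkl had 0.45 (SE 0.29), which was 0.27 without double-transgenic replicate 2, and Pfkp had -0.25 (SE 0.35). Pfkm, the muscle type, had -0.56 (SE 0.61), with -0.22 without Eμ-Myc replicate 4 or without double-transgenic replicate 1, -0.34 without Eμ-Myc replicate 1 and -1.13 without Eμ-Myc replicate 3. Another Pfkl probe set gave 0.56 (SE 0.27) and the dimmest one -0.38 (SE 0.33), so the direction of Pfkl depended on the probe set.

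Regulators and later enzymes of the upper pathway lay within the spread between tumours. Pfkfb3, which makes the fructose 2,6-bisphosphate that activates phosphofructokinase, had 0.30 (SE 0.26). Pfkfb2, a related enzyme, read 4.75 to 6.37 without and 3.68 to 6.04 with the TTP transgene, near background. Its difference was -0.93 (SE 0.54), the most negative of the members, and without Eμ-Myc replicate 1 it was -0.61. The other Pfkfb2 probe sets were under background in all 9 tumours. Aldoa, aldolase A, had 0.21 (SE 0.22), with all 5 probe sets between 0.18 and 0.28. Aldoc, aldolase C, stood at 6.63 and 6.53 in Eμ-Myc replicates 1 and 4 and at 4.19 to 5.46 in the other 7 tumours. The other Aldoc probe set was under background in all 9, at 2.47 to 2.84. On the brighter one the difference was -0.42 (SE 0.54). It was -0.02 without Eμ-Myc replicate 1, -0.06 without replicate 4, -0.75 without replicate 2 and -0.84 without replicate 3 of that group. Pfkm was similarly scattered, with 5.13 and 4.87 in Eμ-Myc replicate 3 and double-transgenic replicate 1 against 6.32 to 7.86 in the rest. Pgam1 had -0.17 (SE 0.24).

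Hk3, a hexokinase of myeloid cells, was near the background limit on its brighter probe set except in Eμ-Myc replicate 4. There it read 6.18, and 3.28 to 4.09 in the other 8 tumours. This probe set has the ending _x_at, a class that can bind other transcripts. The other Hk3 probe set was under background in all 9 tumours, at 2.67 to 3.01, with 2.85 in Eμ-Myc replicate 4. On the brighter one the difference of -0.68 (SE 0.45) was -0.15 without that tumour. Of 10 compared macrophage genes, Adgre1 and Fcgr1 were also highest in that tumour, at 9.97 and 7.82, while Marco read 3.99 there, under background, and Csf1r, C1qa, C1qb and C1qc were highest in Eμ-Myc replicate 3. The mean of the macrophage list was 10.51 in replicate 4 and 10.57 in replicate 3, and 8.58 to 10.14 in the other 7 tumours. The part of macrophages in the Hk3 value was not tested. Eno2, Slc16a3 and Pdk2 were over 4 in 2, 0 and 2 of the 9 tumours and were not compared. Gpi1, Eno1, Gapdh and G6pdx had no probe set assigned to them alone and are not analysed here.

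None of the compared lactate and pyruvate genes had an unadjusted limma p under 0.05, and the groups overlapped for all 6. Slc16a1 (MCT1), which carries lactate across the plasma membrane, had 0.24 (SE 0.19), with 13.81 to 14.28 without and 13.86 to 14.55 with the TTP transgene. Ldhb, the other lactate dehydrogenase subunit, was highest in Eμ-Myc replicate 3 at 7.51 and lay between 5.65 and 6.57 in the other 8, with a difference of -0.44 (SE 0.34). That difference rested on single Eμ-Myc tumours: it was -0.08 without replicate 3 and -0.71 without replicate 1. Pdk1, the kinase that switches pyruvate dehydrogenase off, had -0.21 (SE 0.23) on its brightest probe set and -0.01, -0.03 and 0.06 on the others. Pdha1, the catalytic subunit that it phosphorylates, had 0.29 (SE 0.17) and 0.45 (SE 0.25) on its 2 probe sets, with overlapping groups.

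In the pentose phosphate pathway, 2 of 5 compared members had positive and 3 negative differences. Pgd, 6-phosphogluconate dehydrogenase, read 12.71, 12.76, 12.66 and 12.56 in Eμ-Myc and 12.63, 12.11, 12.22, 12.51 and 12.59 in double-transgenic tumours. Only double-transgenic replicates 1 and 5 reached the Eμ-Myc range. Its difference was -0.26 (SE 0.14, limma adjusted p = 0.86), and all 4 probe sets were between -0.26 and -0.10. The one at -0.10 (SE 0.15) was the only one without the ending _x_at. Pgls, the lactonase before Pgd, had -0.25 (SE 0.17), but -0.12 without Eμ-Myc replicate 1 and -0.39 without replicate 3. It read 12.01 to 12.84 without and 12.04 to 12.29 with the TTP transgene. Taldo1, transaldolase, had -0.09 (SE 0.26), and Rpia, ribose 5-phosphate isomerase, 0.18 (SE 0.32).

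**Figure D5:**
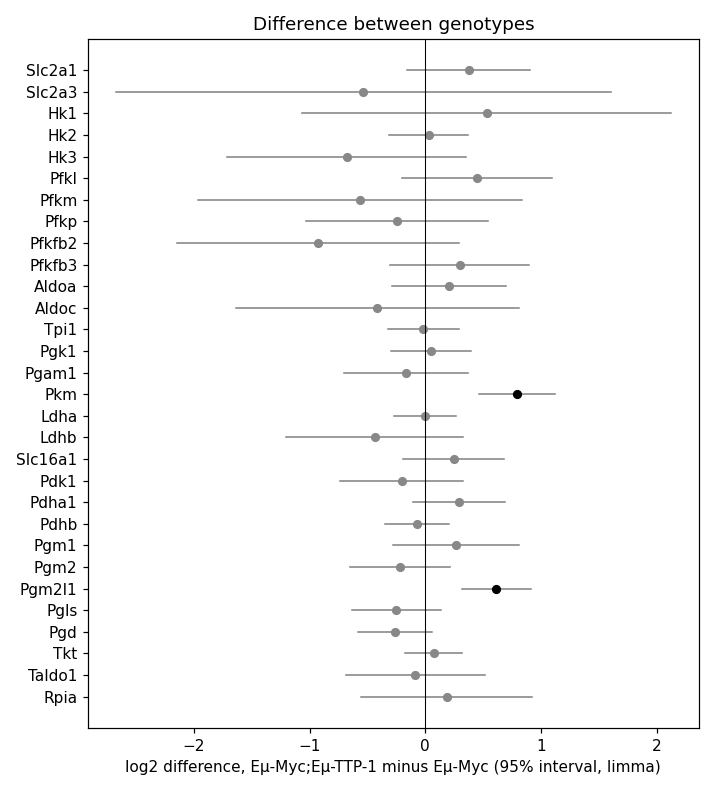
Log2 difference between genotypes (double-transgenic minus Eμ-Myc, horizontal axis) of the 30 compared genes with the 95% interval from limma; black points mark genes whose groups did not overlap. The intervals of Pkm and Pgm2l1 lie above 0 before adjustment, and the other 28 include 0.

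Other genes of these pathways, from lists set apart from the 37, likewise had 0 calls after adjustment with limma. Over all compared genes, 5.67% had an unadjusted limma p under 0.05 and 1.64% had groups without overlap. With so few genes in each list, the counts below are not results about the lists. Of 8 other glycolytic enzymes compared, 2 had positive and 6 negative differences and 1 an unadjusted p under 0.05. That was Bpgm, which makes and breaks down 2,3-bisphosphoglycerate, at 0.59 (SE 0.17, limma adjusted p = 0.845), with 7.64 to 7.94 without and 8.10 to 8.83 with the TTP transgene; Galm, an enzyme of galactose use, was the most negative at -0.49 (SE 0.29). Among 8 genes of pyruvate entry and oxidation, 5 were positive and 3 negative, from -0.05 for Mpc1, a pyruvate carrier subunit, to 1.19 (SE 0.83) for Pcx, pyruvate carboxylase. Among 6 other pentose phosphate genes, 2 were positive, with Prps1, which makes the ribose phosphate donor of nucleotides, at 0.45 (SE 0.13, limma adjusted p = 0.845) and H6pd at -0.97 (SE 0.46). Prps1 read 11.65 to 12.17 without and 12.24 to 12.50 with the TTP transgene, without overlap.

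Glycogen and gluconeogenesis genes had 5 positive and 3 negative differences, 2 of these 8 with an unadjusted p under 0.05, against 5.67% of all genes. Those 2 were the brain-type glycogen phosphorylase Pygb, at 0.29 (SE 0.11), and the glycogen branching enzyme Gbe1, the most negative of the list at -0.78 (SE 0.26). Pygl, the liver phosphorylase, was the most positive at 0.84 (SE 0.72). In the other hypoxia-responsive genes, 6 of 13 were positive and 3 had an unadjusted p under 0.05: Vegfa at 1.27 (SE 0.49), Bnip3 at 1.05 (SE 0.42) and Ero1a at -0.37 (SE 0.11). Ndrg1 was the most negative of this list at -0.64 (SE 0.45).

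The regulators of these pathways had 7 positive and 5 negative differences and 0 with an unadjusted p under 0.05. Myc had 0.10 (SE 0.15) and Hif1a, the oxygen-regulated factor, -0.09 (SE 0.21). The extremes were Hif1an, an inhibitor of that factor, at 0.36 (SE 0.23) and the prolyl hydroxylase Egln2 at -0.18 (SE 0.14).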

How the data were processed

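RNA of 9 lymphomas was measured on 1 array each. The authors deposited intensity values per probe set, which the submitters' processing notes trace to GCRMA (background correction by probe sequence, quantile normalisation, summary per probe set; version not given in the sources used here). They run from 1.56 to 123105 on a linear scale, and no pseudocount was added before log2. Batches could not be examined, since scan dates were not analysed here. The small number of arrays limits precision.

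The platform annotation gave 1 gene for 34945 of 45037 probe sets, several for 932 and none for 9160; 34741 matched a gene of GRCm38.p6, used for names, gene order and promoters. Genes over log2 4 (intensity 16) in at least 4 arrays were fitted with limma 3.58.1 in R 4.3.3 (two-sided, Benjamini-Hochberg over all genes). The fit was tested on simulated data. Single values were permuted exactly over 126 splits, correlations over 2880 within-group orders. Ratios needed both genes over the filter, which 9 of 12 listed pairs met. Per-tumour values were planned for Pkm, the 12 members of smallest p, the 6 of largest SD and pairs with p under 0.05, and the ends of each other list are named; other named genes (steady enzymes, Pfkp, splicing factors, Myc, Hif1a, Bnip3, Ero1a, Pygb, markers, nearest neighbours) and the promoters were picked after the values were seen. The members and lists were chosen with earlier results of these data known. Alternatives were other filters, probe set choices, normalisations and models, a pseudocount of 16, the replicate number as a block, and each array left out.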

Additional observations from a re-analysis of the deposited data

Results flagged for a closer look

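Of 60 groups of values, 1 per member and genotype, 8 held a tumour far from the rest of its group. For normally distributed values such a flag falls on about 1 in 20, or 3. The share flagged over all compared genes is not given here, so the count is not a result about these members. Double-transgenic replicate 2 held the highest or lowest level of the 9 tumours for 34.9% of all genes, and Eμ-Myc replicate 1 for 32.6%. In double-transgenic replicate 2, Slc2a3 was at 7.55 (others 11.76 to 12.25), Ldhb at 5.72 (others 6.05 to 6.14), Pdk1 at 11.23 (others 11.87 to 12.13) and Pgm2 at 9.35 (others 8.45 to 8.68). Pdk1 was at 12.59 in Eμ-Myc replicate 3 (others 11.74 to 11.87) on its brightest probe set, while a dimmer one was lowest in that tumour, at 9.34. Hk3 was at 6.18 in Eμ-Myc replicate 4 (others 4.05 to 4.09) and at 3.28, under background, in double-transgenic replicate 3 (others 4.07 to 4.09). These other Hk3 values lay next to the background limit of 4. Rpia was at 11.78 in double-transgenic replicate 1 (others 10.81 to 11.07).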

How the results depend on the processing

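The number of members called was 0 under all 20 alternatives, and 0 isozyme ratios passed under the 16 that applied. Pkm kept a positive difference, from 0.69 (without Eμ-Myc replicate 3) to 0.85, with a limma adjusted p from 0.262 to 0.981, and Pgm2l1 one from 0.56 to 0.72. The median difference of the members ran from -0.04 to 0.03 and that of Pkm's chromosome neighbours from -0.10 to 0.11. With single tumours left out, 0 to 8 genes were called, the 8 without Eμ-Myc replicate 3 and 1 without Eμ-Myc replicate 4, none of them a member. In the same refits, 0 to 1 members correlated with Pkm, the 1 being Ldha without Eμ-Myc replicate 1. Slc2a3 turned to 0.18 with array weights, and left-out tumours gave -0.83 to 0.35. The replicate numbers are shared between the genotypes, and deviations of same-numbered tumours correlated at -0.09, 0.09, -0.00334 and 0.20. No values for tumours of unlike number are given beside these, so they cannot show whether same-numbered tumours share a batch. With the replicate number as a block, on replicates 1 to 4, 0 genes were called, Pkm had 0.75 and Pgm2l1 0.62, the median of the members was -0.03 and that of the neighbours 0.03. Dim members such as Hk3, Pfkfb2 and Aldoc are poorly determined.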
